A study of Caenorhabditis elegans with 2 samples.

Results

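Reproducible binding peaks centred on a canonical E-box were taken from a chromatin immunoprecipitation sequencing (ChIP-seq) experiment on whole *Caenorhabditis elegans* larvae. The deposited list of reproducible peaks, derived from both replicates by irreproducible discovery rate (IDR), was read on the ce11 (WBcel235) genome. In that list 361 peaks (17.2%, exact 95% binomial interval 15.6 to 18.8) had the 6-base palindrome CACGTG lying fully within 50 bp of the summit, the position of highest signal in a peak, and 1742 did not. The former are called E-box peaks here, and the latter the other peaks, or peaks without the E-box. Over whole peaks 534 held the site, so some of the other peaks have it farther from the summit. Within the list, the E-box peaks were split from the other peaks by sequence alone. Signal, place in each replicate and neighbouring genes were not used for that split. The list itself had first been derived from both replicates, and each window is centred on a summit set by signal. Even so, 10 peaks of the list overlapped no peak of replicate 1, and 1 overlapped none of replicate 2. A window of the same length placed at every position of the 6 nuclear chromosomes held the site in 1.67% of cases.

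The series has 1 group, in 2 biological replicates: mixed-sex L2 larvae of strain OP355, of unknown age. The strain carries the unc-119(tm4063) III allele and the integrated transgene wgIs355, which supplies an eGFP-tagged factor. The labels disagree on that factor, since the source and antibody fields give mdl-1 and the description gives eGFP-ZK337.2. The labels give a size range of 150 to 350 bp for the DNA. Whole larvae were used, so weak binding in many cells and strong binding in few cells cannot be told apart. Each peak carries the authors' signal value, whose scale is not stated and which is compared only within a list. With 2 samples of 1 group no test over samples exists, and peaks of 1 library are not replicates, so the intervals cover counting error over peaks only. Read depth is unknown.

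MDL-1 is a worm member of the Mad family of basic helix-loop-helix leucine zipper proteins. Such proteins pair with Max-type partners and bind the palindromic E-box CACGTG. Myc-type partners of Max activate transcription and Mad-type partners repress it, and both read the same site. In the worm the known partners are MDL-1 with MXL-1 and MML-1 with MXL-2, while MXL-3 and the TFEB homologue HLH-30 also recognise E-boxes and act in fat use and autophagy.

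The windows of the strongest E-box peaks show what was selected. The lines give the plus strand of WBcel235 from 50 bp before to 50 bp after the summit, each E-box in capitals, named by the protein-coding gene with the nearest start. They are the mdl-1 promoter peak and those of the 12 strongest peaks that lie over 20 kb from mdl-1, on the chromosomes from which sequence is shown, with no UTR in the window.
mdl-1 (chrX:6742204-6742304): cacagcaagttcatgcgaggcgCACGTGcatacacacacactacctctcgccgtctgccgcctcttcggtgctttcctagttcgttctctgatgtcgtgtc
aakg-1 (chrIII:12583637-12583737): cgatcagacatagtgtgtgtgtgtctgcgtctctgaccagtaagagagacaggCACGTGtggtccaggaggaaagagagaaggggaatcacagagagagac
gdh-1 (chrIV:11956468-11956568): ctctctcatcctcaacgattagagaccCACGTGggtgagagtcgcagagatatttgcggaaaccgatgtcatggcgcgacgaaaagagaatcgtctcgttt
T04C4.3 (chrIV:2219591-2219691): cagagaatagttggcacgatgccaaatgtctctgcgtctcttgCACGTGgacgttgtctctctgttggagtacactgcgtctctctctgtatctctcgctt
Y43F8B.2 (chrV:19529333-19529433): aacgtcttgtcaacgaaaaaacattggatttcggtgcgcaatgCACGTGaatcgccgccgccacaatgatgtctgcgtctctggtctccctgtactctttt
bcat-1 (chrX:12872433-12872533): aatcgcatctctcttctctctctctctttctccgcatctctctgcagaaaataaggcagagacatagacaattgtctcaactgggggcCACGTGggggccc
hif-1 (chrV:20778312-20778412): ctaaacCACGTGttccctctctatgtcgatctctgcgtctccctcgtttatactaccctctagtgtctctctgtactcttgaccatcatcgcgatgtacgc
F09A5.3 (chrX:13145298-13145398): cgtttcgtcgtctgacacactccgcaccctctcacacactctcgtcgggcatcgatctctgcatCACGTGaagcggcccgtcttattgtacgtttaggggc
C36E6.2 (chrX:17451540-17451640): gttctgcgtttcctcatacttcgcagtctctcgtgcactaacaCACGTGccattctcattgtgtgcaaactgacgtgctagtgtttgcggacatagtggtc
ipla-6 (chrIV:6336825-6336925): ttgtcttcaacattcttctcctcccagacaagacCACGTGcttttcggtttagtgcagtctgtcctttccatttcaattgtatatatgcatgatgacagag
nhr-34 (chrIV:9677775-9677875): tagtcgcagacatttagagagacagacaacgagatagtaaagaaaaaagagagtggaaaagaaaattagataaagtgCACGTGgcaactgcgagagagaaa
pph-1 (chrV:10715895-10715995): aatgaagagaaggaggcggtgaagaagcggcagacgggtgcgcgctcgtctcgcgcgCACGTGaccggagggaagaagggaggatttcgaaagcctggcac
daf-14 (chrIV:10252446-10252546): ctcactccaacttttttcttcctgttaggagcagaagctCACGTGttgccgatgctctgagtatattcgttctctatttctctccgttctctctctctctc

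In the mdl-1 window the E-box is flanked by G and C, which makes the longer palindrome GCACGTGC. Runs of alternating G and A, or of C and T on the other strand, occur elsewhere in several windows, such as those of aakg-1, T04C4.3, bcat-1, nhr-34 and daf-14. Both features are counted over all E-box peaks further on.

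The E-box was found most often at the strongest peaks. Of the 20 IDR peaks of highest signal, 11 had it (55%, interval 31.5 to 76.9). The share was 37.0% (27.6 to 47.2) over ranks 1 to 100 and 28.0% (19.5 to 37.9) over the 100 ranks after these. It was 17.2% (14 to 20.8) over ranks 1001 to 1500 and 11.3% (8.86 to 14.1) from there to the end of the IDR list. Each replicate, ranked by its own signal and scanned at its own summits, also had its highest share there, with 38% in replicate 1 and 33% in replicate 2 over their first 100 ranks. As many top peaks as the IDR list holds, taken from each replicate alone, gave 314 E-box peaks in replicate 1 and 333 in replicate 2, or 15.4% ± 0.639 (SD, n = 2) of the peaks. The deposited pooled list of relaxed peaks goes on below the IDR set. In it the share fell to 7.84% up to rank 5000, 3.86% up to rank 10000 and 1.80% beyond rank 20000, near the 1.67% of all genomic positions.

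**Figure D1:**
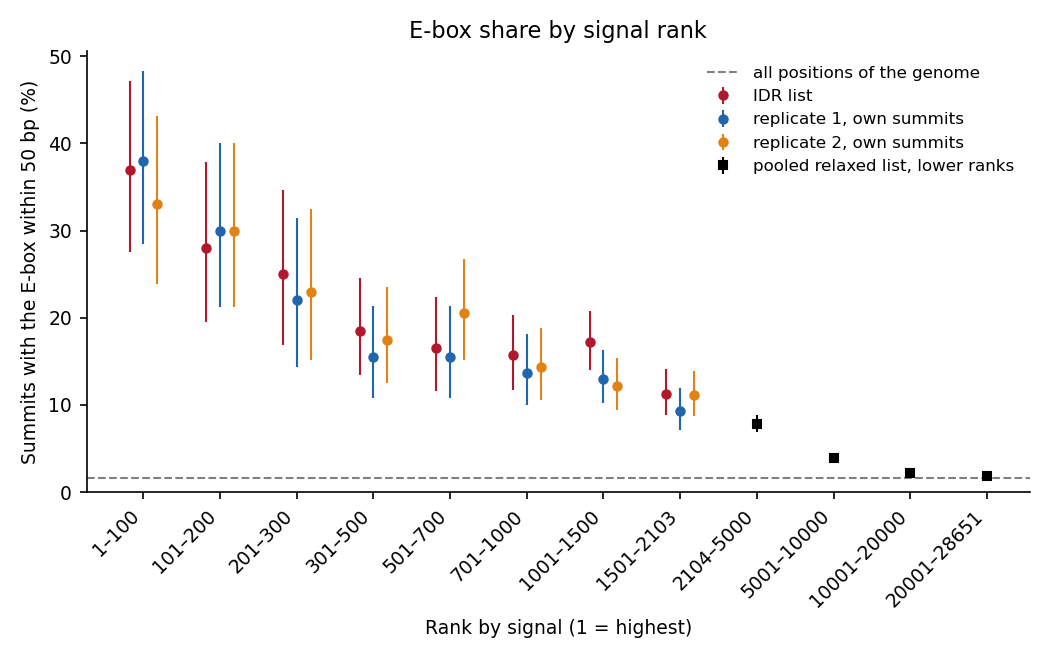
Share of summits with CACGTG within 50 bp (y axis, percent) by rank of signal (x axis), for the IDR list, each replicate by its own summits and the lower ranks of the pooled relaxed list. Bars are exact 95% binomial intervals and the dashed line is the share over all genome positions; the share goes from 37.0% over the first 100 IDR peaks to 1.80% at the lowest pooled ranks.

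The site sat close to the summit. The median distance from the summit to the centre of the nearest E-box was 19.5 bp, and 182 of 361 sites (50.4%) lay within 20 bp. The window fixes a limit on that distance, so the density of sites was also followed out to 500 bp around all IDR summits. There were 4.64 sites per 100 peaks per 25 bp within 50 bp of the summit, 1.53 between 50 and 100 bp, and 0.495 between 250 and 500 bp, a ratio of 9.38 between the centre and the far flanks. That ratio was 12.3 in the upper tier of the peaks, split by signal into 3 tiers of equal size, 9.84 in the middle tier and 6.20 in the lower tier. Measured from each replicate's own summit, the E-boxes of the same peaks lay a median of 24.5 bp away in replicate 1 and 24.5 bp away in replicate 2. Within 100 bp of the replicate's own summit lay 96.1% of these E-boxes in replicate 1 and 96.1% in replicate 2. Around the limit of the window, 46 peaks had the far edge of their nearest site 41 to 50 bp from the summit and a median signal of 50.3, and 41 peaks had it 51 to 60 bp away and a median signal of 64.8.

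**Figure D2:**
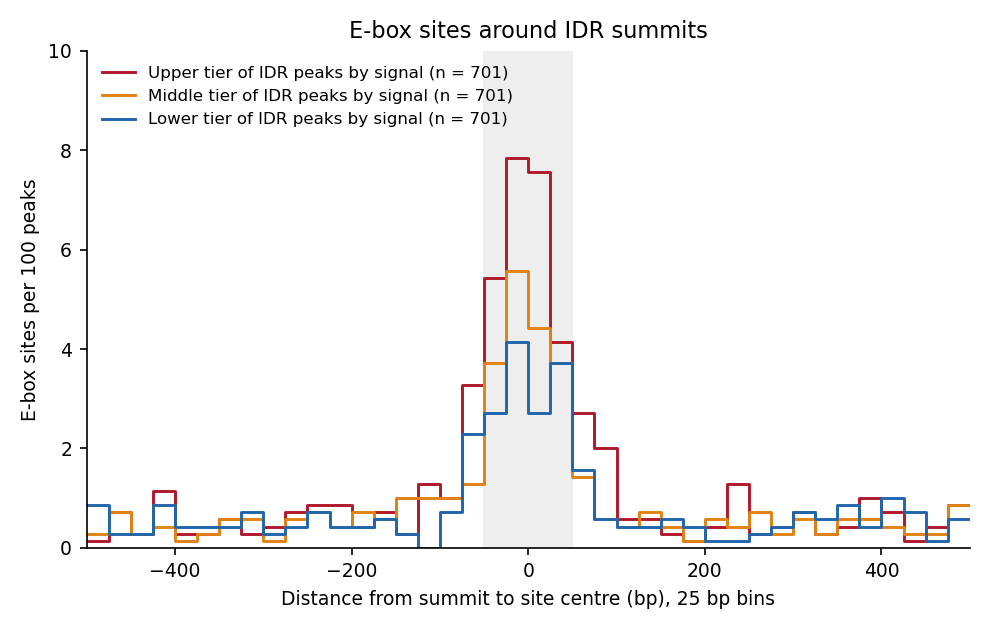
CACGTG sites per 100 peaks in 25 bp bins (y axis) against the distance from the summit to the site centre (x axis, bp), for 3 tiers of the IDR peaks by signal. The grey band marks 50 bp to either side of the summit; the density there is 12.3, 9.84 and 6.20 times that at 250 to 500 bp in the upper, middle and lower tier.

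E-box peaks carried more signal than the other peaks, by a factor that was alike in each replicate. In the pooled IDR list their signal ran from 32.5 to 986 with a median of 59.4 and quartiles of 43.2 and 111, against a median of 50.3 and quartiles of 39 and 75.9 for the other peaks. In replicate 1 the medians were 24.4 for E-box peaks and 20.5 for other peaks, and in replicate 2 they were 38.7 and 32.7. The ratio of medians was 1.19 in replicate 1 and 1.18 in replicate 2, or 1.19 ± 0.00471 (SD, n = 2). The 2 sets overlap over most of their range, and they differ more in the upper quartiles than in the medians. Within promoter windows the pooled ratio was 1.19, outside them 1.2, on chromosome X 1.28 and on the autosomes 1.17.

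E-box peaks were also found in both replicates more often. Of the 361, 281 (77.8%, interval 73.2 to 82.0) overlapped a peak among the top peaks of each replicate, against 1167 of 1742 other peaks (67.0%, 64.7 to 69.2) and a background of 68.9% of all IDR peaks. The shares depend on signal. In the upper tier of IDR ranks they were 160 of 160 E-box peaks and 540 of 541 others, and in the middle tier 82.6% and 83.8%. In the lower tier they were 30.2% (20.8 to 41.1) of E-box peaks and 22.1% (18.9 to 25.6) of others, with intervals that overlap. Across peaks, the signals in the replicates had a Spearman correlation of 0.742 for E-box peaks (n = 360) and 0.610 for other peaks (n = 1732). The E-box peaks also had the wider quartiles of signal, and the part of that in the correlation was not tested. Neighbouring IDR peaks could also take the signal of the same replicate peak. A peak without the E-box, of rank 1057 and pooled signal 51.4, had 150 and 301, the values of the hif-1 peak. The part of such sharing in these shares and correlations was not tested. The summits of both replicates lay a median of 24 bp apart at E-box peaks and 32 bp apart at other peaks. The 1 E-box peak with no relaxed peak in replicate 1 lay 1122 bp upstream of kmo-1, a kynurenine monooxygenase gene of tryptophan breakdown, with a pooled signal of 40.3 and a signal of 24.6 in replicate 2. It is named because it is the single exception.

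**Figure D3:**
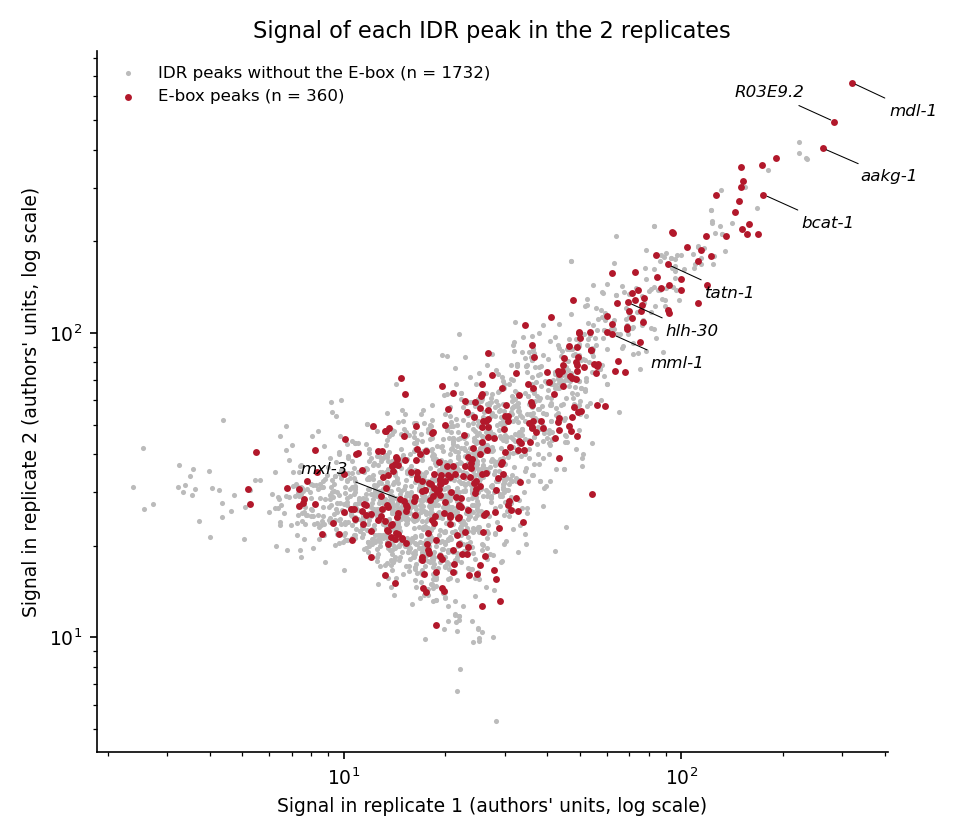
Signal of each IDR peak in replicate 1 (x axis) and replicate 2 (y axis), both in the authors' units on log scales, with E-box peaks in red and other peaks in grey. The mdl-1 promoter peak is highest in each replicate, at 320 and 665, and the mxl-3 peak, at 14.7 and 28.4, sits among the bulk of the peaks.

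The strongest E-box peak was the strongest peak of the whole list, with its summit 97 bp upstream of the start of mdl-1 (WBGene00003163, X, 6742351 to 6743899, plus strand). Its signal was 986 in the pool, 320 in replicate 1 and 665 in replicate 2, and it ranked 1 in each. In all, 6 E-box peaks and 13 other peaks had summits less than 20 kb from the centre of mdl-1. They include the E-box peaks ranked 2, 9 and 19, with signals of 787, 529 and 417. The transgene may carry its own copy of this region, and the part of that copy in these values was not tested. Without the region 355 E-box peaks remained, and their median signal was 1.17 times that of the other peaks.

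Of the 5 genes of the Myc and Mad network, mdl-1, mml-1 and mxl-3 were the nearest gene of an E-box peak. The gene mml-1 encodes the Mondo-like partner of MXL-2, and the E-box peak 1855 bp upstream of its start had signals of 62.5 in replicate 1 and 98.9 in replicate 2 and ranked 161 in the pool. The gene mxl-3 encodes a Max-like repressor of lipase genes. Its nearest E-box peak lay 2207 bp downstream of the start, past the gene's end, with signals of 14.7 and 28.4 and rank 1285. A peak without the E-box lay in the mxl-3 promoter, 221 bp upstream, with signals of 9.88 and 26.1. At the Max-like genes mxl-1 and mxl-2 no E-box peak lay within 20 kb of the start, and the nearest were 123384 bp and 605662 bp away. Among the basic helix-loop-helix genes, hlh-30 had an intronic E-box peak 8877 bp downstream of its outermost start, with signals of 69.4 and 126 and rank 109 (named after its values were seen). Against these, 323 of 19973 protein-coding genes (1.62%) were nearest to an E-box peak. The same 3 of the 5 network genes were nearest to any IDR peak, and that share over all genes was not computed. Their count therefore cannot be read as particular to E-box peaks.

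Like most IDR peaks, the E-box peaks of highest signal lay mostly outside promoter windows. Such a window reaches from 1000 bp before the outermost start of a protein-coding gene to 200 bp after it. It held 38.2% of all E-box peaks and 44.7% of all IDR peaks. Equally strong peaks without the E-box were not counted. Of the 20 strongest E-box peaks, 5 had a summit in a promoter window. These were the peaks of mdl-1, C36E6.2, ipla-6, met-1 and mans-3. C36E6.2 encodes a protein with an Nbr1-type domain, and its peak lay 80 bp upstream with signals of 169 and 212 in replicates 1 and 2. The gene ipla-6 encodes a patatin-like phospholipase, and its peak lay 778 bp upstream with signals of 151 and 219. The peak 128 bp upstream of met-1, a histone H3 lysine methyltransferase gene, had signals of 136 and 208, and the peak 184 bp upstream of mans-3, an alpha-mannosidase gene, had 122 and 179. All 5 ranked in the first 60 peaks of each replicate.

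The peak ranked 3 lay 8286 bp upstream of aakg-1, which encodes a gamma subunit of AMP-activated protein kinase, with signals of 262 in replicate 1 and 405 in replicate 2. The peak of gdh-1, the glutamate dehydrogenase gene, lay 3269 bp downstream of its start inside a non-coding gene, with signals of 191 and 377. The peak 4997 bp upstream of bcat-1, the branched-chain amino acid aminotransferase gene, had 175 and 285. The peak 2045 bp upstream of hif-1, the hypoxia-inducible factor gene, had 150 and 301. These 4 peaks were among the 20 strongest of each replicate.

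The remaining peaks outside promoter windows among the 20 strongest are given next. T04C4.3, annotated as a translation initiation factor subunit, had its peak 2785 bp upstream with signals of 150 and 350. The peak in an intron of Y43F8B.2, 3727 bp downstream of the start, had 152 and 317. The intronic peak of ppfr-1, a regulatory subunit gene of protein phosphatase 4, lay 8569 bp downstream of the start with 127 and 284, and the intronic peak of F09A5.3, an uncharacterised gene, had 144 and 249. The nuclear hormone receptor gene nhr-34 had a peak 2153 bp upstream with 156 and 211. The Smad gene daf-14, of the dauer TGF-beta pathway, had one in an intron 1869 bp downstream of its start with 94.7 and 213. The peak 2560 bp upstream of Y17G7B.17, a myeloid leukemia factor homologue, had a pooled signal of 299, and the peak at R03E9.2 lay 4464 bp upstream, within the mdl-1 region. The peak nearest to the start of pph-1, a protein phosphatase gene, was 13396 bp away and fell inside the gene T28B11.1, so the nearest start need not name the gene a peak lies in.

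At the other end, the 5 E-box peaks of lowest signal had 32.5 to 33.0 in the pool. They were nearest to spsb-1, C49F8.15, sgca-1, acs-11 and Y71F9AL.10, and none of the 5 lay in a promoter window. Their signals were 8.59 to 23.5 in replicate 1 and 11.0 to 23.6 in replicate 2. The order of these 5 differed between the replicates, since the lowest in replicate 1 was at sgca-1 and the lowest in replicate 2 was at Y71F9AL.10.

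Some genes drew several separate E-box peaks. The 361 peaks had 323 distinct nearest genes, 27 genes were nearest to 2 or more and 7 to 3 or more. The most were 5 at mdl-1, then 4 each at nhr-34 and H18N23.2, a protein phosphatase 1 regulatory subunit gene, and 3 each at aakg-1, bcat-1, mak-1 and T28B11.1. At aakg-1 the 3 peaks had pooled signals of 663, 189 and 110, 1 upstream and 2 intronic, and at bcat-1 they had 461, 172 and 41.1. T28B11.1 is named because the count singles it out, after its values were seen. In all, 71 E-box peaks (19.7%) had another within 5000 bp, and no site was counted for more than 1 peak.

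E-box peaks lay farther from gene starts than the other peaks. A promoter window held 138 of 361 E-box peaks (38.2%, interval 33.2 to 43.5) and 801 of 1742 others (46%, 43.6 to 48.4). The median distance to the nearest start was 1288 bp and 974 bp. The difference lay in the first 500 bp upstream, with 23.8% (19.5 to 28.6) of E-box peaks and 34.3% (32.1 to 36.6) of others. From 0 to 500 bp downstream the shares were 7.76% (5.22 to 11.0) and 4.42% (3.50 to 5.49), whose intervals overlap. Peaks over 2000 bp from any start were 39.9% (34.8 to 45.1) of E-box peaks and 33.1% (30.9 to 35.4) of others, again with intervals that overlap. Windows of 2 or more genes held 6.37% of E-box peaks and 13.1% of others. With the starts of all transcripts in place of the outermost gene starts, the promoter shares were 48.8% (43.5 to 54.0) and 53.2% (50.8 to 55.5), whose intervals overlap, so that contrast depends on which starts are used.

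**Figure D4:**
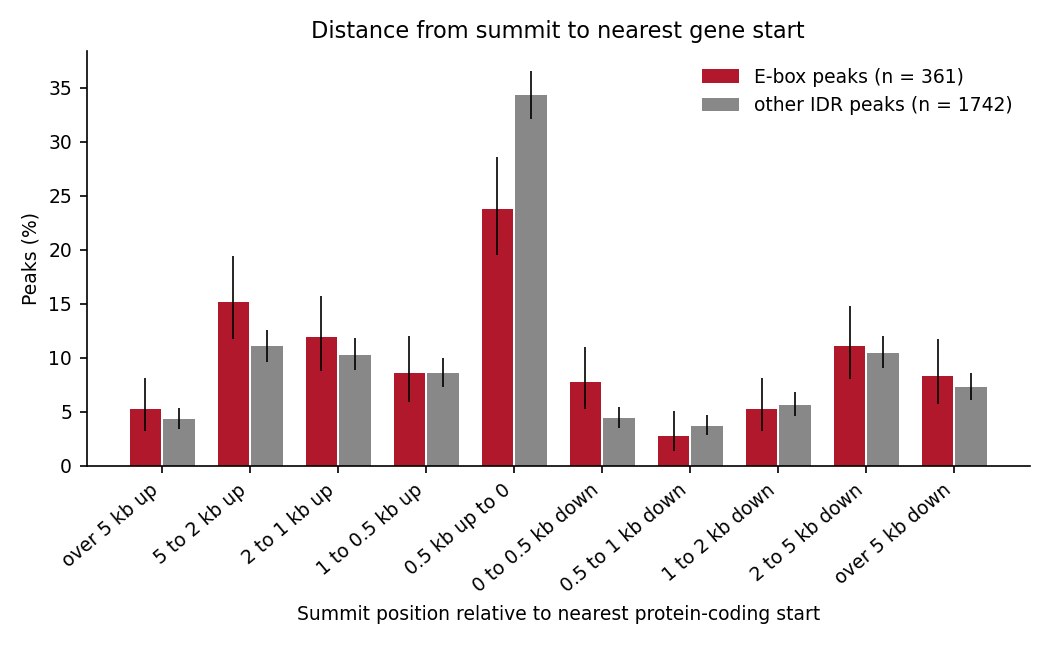
Share of peaks (y axis, percent) by position of the summit relative to the nearest protein-coding start (x axis, upstream on the left), for E-box peaks in red and other IDR peaks in grey, with exact 95% binomial intervals. In the 0.5 kb just upstream of a start the bars stand at 23.8% and 34.3%.

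Outside promoter windows, 103 E-box peaks were intergenic (28.5%), 97 were in introns (26.9%) and 10 in non-coding genes. A further 5 were in a 3' UTR, 4 in a 5' UTR and 4 in a coding exon. Introns held 23.2% of other peaks and intergenic sequence 24.1%, within the intervals for the E-box peaks of 22.4 to 31.8 and 23.9 to 33.5. By chromosome, 87 E-box peaks (24.1%, 19.8 to 28.9) and 427 others (24.5%) lay on X.

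Most sites in the genome had no peak. Of 17729 CACGTG sites on the nuclear chromosomes, 590 (3.33%) lay inside an IDR peak, at any distance from its summit. Fewer, 378 (2.13%, interval 1.92 to 2.36), lay within 50 bp of an IDR summit, and these 378 are the sites of the E-box peaks. Sites this close to a summit are called bound here, and the shares that follow count them unless stated. Shares inside a peak were higher, at 7.66% in promoter windows and 0.368% in coding exons. In promoter windows outside coding exons the share of bound sites was 137 of 2727 (5.02%, 4.23 to 5.91). In intergenic sequence it was 3.31% and in introns and UTRs 2.42%. In coding exons it was 10 of 6796 (0.147%, 0.0706 to 0.270). Sites on X were bound more often than on any autosome, at 3.69% (2.98 to 4.51) against 1.92% to 2.34% on chromosomes II to V and 1.13% on chromosome I. With each replicate's own top summits, X had 3.12% in replicate 1 and 3.61% in replicate 2, and the autosomes 1.07% to 2.03% and 1.13% to 2.00%. The shares by chromosome include sites in coding exons. Since X held 24.5% of the other peaks beside 24.1% of E-box peaks, a place on X was not particular to peaks with the E-box.

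The bases next to the E-box went with the share of sites that were bound. In GCACGTGC, 22 of 417 sites (5.28%, interval 3.34 to 7.88) were at an IDR summit, and in CCACGTGG 35 of 3000 (1.17%, 0.814 to 1.62). ACACGTGC or its complement had 3.57% and GCACGTGA 3.07%. The CLEAR-type palindrome TCACGTGA, the form bound by TFEB-family factors, had 26 of 1267 (2.05%, 1.34 to 2.99). Its place depends on the measure. Counted anywhere inside an IDR peak, TCACGTGA had 54 sites (4.26%), beside 4.51% for GCACGTGA, 7.43% for GCACGTGC and 1.93% for CCACGTGG. In the top lists of the replicates, GCACGTGC had 3.60% and 5.28% and CCACGTGG 1.2% and 1.13%. The latter is common in coding exons, and with those left out the shares were 7.79% (4.68 to 12) and 2.4% (1.67 to 3.34), which still do not overlap.

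Signal at peaks with 1 site also differed between flanks. The median was 86.9 for the 19 peaks with GCACGTGC, with 40.4 in replicate 1 and 54.9 in replicate 2. It was 46.4 for the 24 peaks with TCACGTGA, with 19.6 and 30.4. CCACGTGC came near the top, at 83.2 over 36 peaks, although its 2.32% of bound sites was in the middle of the range. These are medians of small groups, given as a description.

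Nearly all E-box peaks had a single site. Within the window 344 had 1 site, 17 (4.71%, interval 2.77 to 7.43) had 2 and none had 3. The spacing of the 2 sites, start to start, ran from 9 to 69 bp with a median of 24.0 bp. Over the whole peak in place of the window, 53 of the 361 had 2 or more. Peaks with 2 sites had a median signal of 73.4 against 59.2 for those with 1. In each replicate the medians were close, at 25.7 and 24.4 in replicate 1 and at 41.1 and 38.6 in replicate 2, and the quartiles overlap, at 42.5 and 126 against 43.6 and 110 of peaks with 1 site. The pooled ratio of 1.24 was 1.05 in replicate 1 and 1.07 in replicate 2.

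The 3 strongest peaks with 2 sites that lie on the chromosomes shown are printed next, with both sites in capitals, on the plus strand of WBcel235. Their sites are 29 bp, 34 bp and 12 bp apart from start to start, and they were picked by signal after the count was known.
C49F8.15 (chrX:13358729-13358829): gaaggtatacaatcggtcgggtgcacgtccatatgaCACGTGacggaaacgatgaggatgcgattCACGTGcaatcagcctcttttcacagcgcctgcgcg
D2023.1 (chrV:11799388-11799488): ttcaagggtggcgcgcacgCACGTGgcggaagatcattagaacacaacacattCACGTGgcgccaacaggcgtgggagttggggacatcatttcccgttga
H18N23.2 (chrX:17640959-17641059): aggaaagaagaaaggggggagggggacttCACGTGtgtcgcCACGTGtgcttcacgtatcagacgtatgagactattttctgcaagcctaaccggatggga

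The peak near C49F8.15, an uncharacterised gene, had signals of 72.8 in replicate 1 and 159 in replicate 2. The intronic peak near D2023.1 had 75.5 and 93.5. The promoter peak of H18N23.2, 138 bp upstream of the start, had 34.5 and 106. The peak 1914 bp upstream of mak-1, a MAP kinase-activated kinase gene, had 46.5 and 90.4 with sites 15 bp apart, and the peak 6624 bp upstream of tpra-1, a transmembrane protein gene, had 36 and 91.3 with sites 59 bp apart.

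GAGAGA runs were less frequent at E-box peaks than at other peaks. The motif GAGAGA, searched on both strands in the same window, was at 84 E-box peaks (23.3%, interval 19 to 28) and 593 others (34%, 31.8 to 36.3), against 5.18% of all genomic windows. CTGCGTCT, on both strands, was at 34 (9.42%, 6.61 to 12.9) and 222 (12.7%, 11.2 to 14.4), against 0.522% of genomic windows, and the intervals overlap. The latter motif and GAGAGA can share bases where they adjoin. The GC content of the window had a median of 45.5% at E-box peaks and 48.5% at others.

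Peaks that held the E-box and at least 1 of these motifs had the highest median signal when peaks were split by both. That split of the signal was chosen after seeing the data. The E-box peaks with GAGAGA or CTGCGTCT, 28% of them, had a median signal of 88.1, with 34.1 in replicate 1 and 52.8 in replicate 2. The 260 E-box peaks with neither had 53.7, with 22.0 and 34.1. The 697 other peaks with either motif had 55.3 and the 1045 with none of the 3 motifs had 47.9. The ratio of E-box to other peaks was therefore 1.59 among peaks with either motif, or 1.54 and 1.47 by replicate, and 1.12 among peaks with neither, or 1.12 and 1.09. Of the 13 windows printed above, those of aakg-1, T04C4.3 and hif-1 held both motifs beside the E-box.

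Over all 19973 protein-coding genes, 159 (0.796%) had an E-box summit in the window and 1171 (5.86%) had any IDR summit there, so that 13.6% of the genes with an IDR promoter summit had one with the E-box. Of 25 gene lists, 13 had at least 1 gene with an E-box summit. The lists are described by counts beside these shares, with no test. They do not hold every gene of a class, so a count of 0 covers the listed genes only. Genes left out include T04C4.3, T28B11.1, annotated with an F-box domain, the NADH dehydrogenase subunit gene ndub-8 and the Rab gene unc-108. Each was nearest to an E-box peak, and ndub-8 and unc-108 are named after their values were seen.

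Among these 25 lists, those of glycolysis and autophagy genes had the highest shares of the lists with more than 5 genes. Of 30 autophagy genes, 3 had an E-box promoter peak (10%) and 6 had any IDR promoter peak. They were epg-7, a scaffold for aggregate removal, with signals of 72.9 and 128 in replicates 1 and 2, the lipid scramblase gene atg-9 with 51.4 and 77.5, and the tethering factor gene epg-5 with 14.9 and 21.2. Their summits lay 138 to 225 bp upstream of the start. Of 24 glycolysis and gluconeogenesis genes, 3 had one (12.5%), and 5 had any. These were the hexokinase gene hxk-3 with 55 and 79.1, the pyruvate carboxylase gene pyc-1 with 12.9 and 29.2, and the aldolase gene aldo-2 with 17.5 and 14.1.

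The listed genes of growth and protein synthesis with an IDR promoter peak mostly had no E-box summit there, as was the case for genes in general. Of 80 cytosolic ribosomal protein genes, 40 (50%) had an IDR summit in the promoter window and 2 (2.50%) an E-box summit, rpl-14 with a pooled signal of 157 and rps-29 with 45.9. Among 45 translation factors 12 had any IDR peak and none an E-box peak, and among 51 respiratory chain genes these numbers were 14 and 0. They were 16 and 0 among 69 heat shock and chaperone genes, 7 and 0 among 33 proteasome genes, 10 and 0 among 63 cell cycle genes, and 6 and 0 among 30 nucleolar genes. Of 50 splicing genes 14 had any and 1 an E-box peak, snrp-3 with 15.2 and 63.2. Of 107 trafficking genes 29 had any and 3 an E-box peak, arf-5, sec-12 and sec-23, with pooled signals of 33.0 to 43.8. Aminoacyl-tRNA synthetase genes had 2 of 31 with any and none with the E-box.

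Nutrient signalling genes were nearest to E-box peaks only outside promoter windows, as drawn from the outermost starts. Of 39 TOR, AMPK and insulin pathway genes, none had an E-box summit in the promoter window, but 6 (15.4%) were nearest to an E-box peak, against 1.62% of all genes. Besides aakg-1 these were aakg-3, a second AMPK gamma subunit gene with signals of 92.2 and 116, akt-1 with 75.8 and 118, the insulin receptor gene daf-2 with 35.9 and 59.3, ist-1 with 43.4 and 47.8 and daf-16 with 8.23 and 27.3. The last 5 are named after their values were seen. The peaks of daf-2, ist-1 and daf-16 were intronic, and their distance to other transcript starts of these genes was not examined. In that list 17 of the 39 genes were nearest to any IDR peak, and that share over all genes was not computed. The 15.4% therefore cannot be read as particular to E-box peaks. Long genes and genes beside wide intergenic space are nearest to more peaks, and that was not tested here.

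Among lipid and sterol genes 1 of 31 had an E-box promoter peak, pmt-1, a phosphocholine synthesis gene, with 13.4 and 27.2, and 3 were nearest to one. For one-carbon and nucleotide genes it was 1 of 25, alh-3, with 10.9 and 40.1. The lysosome and TFEB list had 0 of 57, with 10 genes that had any IDR promoter peak. The hypoxia list had 0 of 12, with hif-1 nearest to the intergenic E-box peak upstream of it. Of 274 nuclear hormone receptor genes, 5 had an E-box promoter peak (1.82%) and 14 were nearest to one (5.11%). The 5 were nhr-32 with signals of 87.1 and 140, nhr-135 with 14.8 and 71.2, nhr-104 and nhr-42 with pooled signals of 44 and 37.9, and nhr-21 with 9.26 and 23.8. Of 95 homeobox genes 1 had one, the Hox gene lin-39, with 12.6 and 40.9, and of 54 chromatin genes 1, met-1. Of 1250 chemoreceptor genes 1 had one, str-176, with 9.68 and 21.9. There were none among 175 collagen and 322 F-box genes. Any IDR promoter peak was found at only 2 collagen, 4 F-box, 3 homeobox and 7 chemoreceptor genes. It was found at 3 hypoxia, 3 one-carbon and nucleotide, 7 lipid and sterol, 10 chromatin and 21 nuclear hormone receptor genes. The low E-box counts of these lists therefore rest on few genes with a promoter peak.

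**Figure D5:**
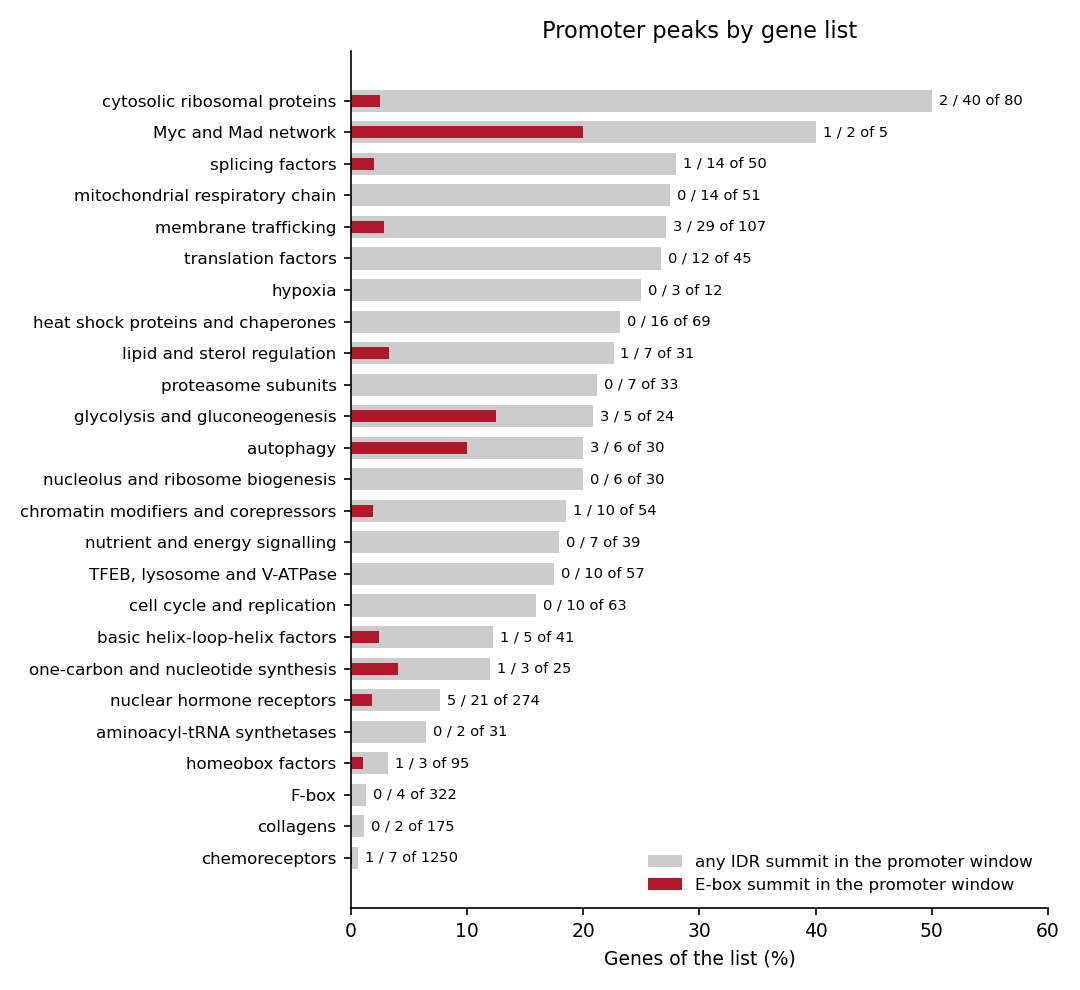
Share of each list's genes (x axis, percent) with any IDR summit (grey) or an E-box summit (red) in the promoter window, by list, with the numbers of genes with an E-box peak, with any peak and in the list beside each bar. Cytosolic ribosomal proteins have the longest grey bar, 50%, with 2.50% in red.

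Genes of amino acid breakdown recurred among the neighbours, and a list of 38 of them was drawn up after the values were seen, so its count is a description of what was noticed. Of the 38, 11 (28.9%) had an E-box summit in the promoter window, against 0.796% of all protein-coding genes. Any IDR summit was there in 16 (42.1%, against 5.86%), so the list was also rich in IDR peaks in general. A further count, of genes nearest to an E-box peak, was 15 (39.5%, against 1.62%). Genes listed after their peaks were seen make these shares no test. For tyrosine the genes with an E-box promoter peak were tatn-1, hgo-1 and gst-42. The peak 504 bp upstream of tatn-1, the aminotransferase gene, had signals of 91.0 and 168. At hgo-1 they were 27.9 and 16.6, and at gst-42 36 and 57.9. For branched-chain amino acids and propionate the genes with an E-box promoter peak were bcat-1, acdh-9, ivd-1, alh-8 and hphd-1. The promoter peak of bcat-1 had 60.4 and 114, acdh-9 had 47.3 and 52.8, and ivd-1 had 32.3 and 28.7. The peak of alh-8 had a pooled signal of 142, and hphd-1 had 13.2 and 47.5. The tryptophan dioxygenase gene tdo-2 had 29.8 and 48.5, the cysteine dioxygenase gene cdo-1 had 19.6 and 67.1, and the arginase gene argn-1 had 22.6 and 33.9.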

How the data were processed

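Narrow peak lists were deposited for 2 biological replicates, their pool and the IDR set. The sources used here name no peak caller, aligner, control treatment or IDR threshold. The authors' signal per peak and their −log10 q-value are deposited columns, and the q-value was not used. Lists in ce10 were not used. The strain, build and replicate numbers come from the labels.

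Summits were scanned for exact CACGTG in WBcel235 (RefSeq sequence), genes came from Ensembl release 115 and products from RefSeq. An IDR peak took the signal of the strongest relaxed peak overlapping it by at least 1 bp in each replicate, so neighbouring IDR peaks could share it. Top lists hold as many peaks per replicate as the IDR list. Class was decided by promoter window first, then UTR or coding exon, intron, non-coding gene and intergenic sequence. Intervals are exact (Clopper-Pearson) at 95%. The scan, overlap and distance steps were tested on simulated data.

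Members and lists were chosen with earlier results of these data known. Named genes are mdl-1, the network list, the nearest genes of the 20 strongest, the 5 weakest and the 5 strongest 2-site E-box peaks, and up to 5 promoter genes per list. The 11 promoter genes of the amino acid breakdown list and the genes marked in the text were named outside this rule, after their values were seen. Of the list symbols, 11 had no match. Software was Python 3.11.15 with matplotlib 3.10.9, scipy 1.17.1, pandas 2.3.3 and numpy 2.4.6.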

Additional observations from a re-analysis of the deposited data

How the results depend on the processing

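No paired analysis was possible because the replicates form 1 group. The deposited lists give no read depth, so what depth limits cannot be stated.

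A count was held to have moved beyond 1.5 times, a share beyond its 95% interval, and a ratio or distance beyond 1 SD of the replicates, which is 0.00471 for the signal ratio of E-box to other peaks. By these unequal limits 33 of 52 alternatives over 11 results moved the value, some only from 1.18 to 1.19. Only the ratios of median signal were checked for a change of direction, and none changed. The shares were varied for E-box peaks alone, so their contrasts with the other peaks were not checked in this way. The number of E-box peaks was 203, 475 and 541 at half-widths of 25, 100 and 200 bp. It was 534 over the whole peak and 575 with the relaxed site CAYGTG. With the summits of 1 replicate it was 329 to 340. The signal ratio was 1.21, 1.19 and 1.17 at half-widths of 25, 100 and 200 bp, 1.19 against others without CAYGTG, 1.19 within and 1.2 outside promoter windows, and 1.17 without 20 kb around mdl-1. Without GAGAGA and CTGCGTCT, an alternative chosen after seeing the data, it was 1.12, and in 1 replicate 1.18 to 1.19. The share in both top lists was 45.7% with the top 1000, 97.2% with the top 5000 and 99.7% with the whole relaxed lists. By 3 tiers of rank, chosen after seeing the data, it was 100%, 82.6% and 30.2%. The promoter share was 25.8% at 500 bp upstream, 51.8% at 2000 bp and 48.8% with all transcript starts, and 36.9% to 37.5% in 1 replicate. The median distance to the site was 9.50, 27.5 and 33.5 bp at half-widths of 25, 100 and 200 bp, and 24.5 bp from each replicate's summits. The share with 2 sites was 8.42% at 100 bp, 11.5% at 200 bp and 11.2% over the whole peak. The signal ratio of 2 sites to 1 was 1.25 without the mdl-1 region and 1.05 to 1.07 in 1 replicate. GCACGTGC over CCACGTGG was 4.52 in the share of bound sites, and 3.0 to 4.66 in 1 replicate. Either motif beside the E-box was at 44.3% at 100 bp. The share on X was 23.9% to 25.5% in 1 replicate. Other window and distance alternatives change the set by construction, and the cause of the remaining moves was not tested.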
